A study of Mus musculus with 8 samples.

Results

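Immature dentate granule neurons were followed in hippocampal nuclei of male mouse pups at postnatal day 21 (P21), in which RNA and chromatin accessibility (ATAC) were read from the same nucleus. Members were nuclei with at least 1 UMI (a counted RNA molecule) of at least 3 of 8 genes, namely Igfbpl1, Sema3c, Cd24a, Draxin, St8sia2, Sox11, Gal and Tac2. They also had at least 1 UMI of Prox1, at most 1 of Gad2, and fewer than 2 detected genes of the transitional granule stage (Rasef, Lepr, Glra2, Cdhr1, Tex15 and Myo5b). This rule took 722 of 11518 kept nuclei (6.27%), with 220, 137, 216 and 149 nuclei in libraries MF1, MF2, HF1 and HF2, an order kept for all values below. Wild-type C57BL/6J dams, 8 weeks old, ate a diet with folic acid (FA) at 2 mg/kg (MF, control) or 20 mg/kg (HF, excess). Dams were on the diet for 2 weeks when they were mated and stayed on it while pregnant and nursing. Each diet gave 2 libraries. The study calls them biological replicates, and how many pups went into each was not stated. The comparison of diets asked whether excess maternal FA went with altered RNA or accessibility in these cells of the offspring, and the comparison with older granule nuclei asked how far the immature state also showed in the chromatin.

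Granule neurons are the principal excitatory cells of the dentate gyrus, and unlike most neurons they are still being produced after birth. Newborn granule neurons leave the cell cycle, express doublecortin (Dcx) and later calretinin (Calb2), send a mossy fibre axon towards CA3 and grow dendrites before calbindin (Calb1) marks the mature cell. Prox1 is the transcription factor that holds granule identity at all of these stages. Synaptic input to the youngest cells is GABAergic and depolarizing, since the chloride importer Slc12a2 is in use before the exporter Slc12a5.

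The RNA values of the rule genes chose the members and are given as a description. Among the members, 257 nuclei had 3 of the 8 genes, 256 had 4, 143 had 5, 55 had 6, 10 had 7 and 1 had all 8. Just outside the rule, 251 nuclei met every other condition with 2 of the 8 genes. Summed over nuclei with 2, 3, 4 and 5 or more of the genes, Igfbpl1 stood at 118, 429, 458 and 495 CPM (a gene's share of all UMIs of the summed nuclei, scaled so that every sum adds up to the same total). Dcx, which the rule did not use, stood at 89.8, 178, 205 and 217 CPM in the same order, and Sox4 at 43.1, 134, 146 and 161 CPM. The nuclei just outside thus held lower levels of both genes than those just inside. Igfbpl1 had a UMI in 92.5% of members and 9.53% of all other kept nuclei, Sema3c in 94.7% and 10.6%, and Sox11, the least restricted of the 8 genes, in 86.7% and 23.4%. Draxin, the rarest, had a UMI in 15.8% of members and 1.07% of the others.

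Members were shallow nuclei. Their median was 3398 UMIs over 1938 genes, with 17420 ATAC counts, while the 10796 other kept nuclei had a median of 6969 UMIs. In a clustering of all kept nuclei by RNA, 509 members (70.5%) fell into 1 of 30 clusters, called the shared cluster here, whose leading genes were Gal, Cd24a, Igfbpl1, Sema3c and Pappa2. That cluster held 920 nuclei, and those that did not meet the rule are counted among the other kept nuclei. Values given for the shared cluster are those of its 509 members. The other 213 members lay in clusters led by genes of other cell types or of later granule stages, with a median of 10823 UMIs against 2966 in the shared cluster. Their median doublet score was 0.0765 against 0.0060, and they carried 54.3, 59.5, 63.7 and 72.3% of the members' UMIs in the 4 libraries. Main results are given for all members and, where stated, for those of the shared cluster, a split added after the data were seen. What the other 213 nuclei are was not tested. Summed oligodendrocyte markers stood at 1592, 1176, 884 and 1035 CPM in members and at 308, 186, 394 and 179 CPM in the shared cluster. Microglia markers stood at 215, 293, 179.9 and 94.2 CPM against 57.6, 86.2, 92.2 and 85.8 CPM, and inhibitory neuron markers at 279, 839, 434 and 234 CPM against 97.2, 116, 102 and 104 CPM. Cycling genes stood at 52.6, 63.1, 31.2 and 15.9 CPM in members and at 9.001, 3.32, 8.199 and 3.57 CPM in the shared cluster, lower in the shared cluster of every library. What part these markers have in the results was not tested. Libraries shared 13 to 27 barcodes per pair, and 1 barcode was a member in both MF1 and HF2.

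The label was checked with markers outside the rule. Dcx had a UMI in 61.9% of members, 28.9% of the other nuclei and 23.6% of mature gate nuclei. The mature gate comprised 848 Prox1 and Slc17a7 positive nuclei with at least 2 of Calb1, Dsp, C1ql2, Lct, Trhr and Tdo2 and a median of 9402 UMIs. It also allowed at most 1 UMI of Gad2, at most 1 of the 8 rule genes and fewer than 2 of the 6 transitional genes. Low RNA of rule genes in this gate was thus in part set by the gate. Neurod1, a proneural factor of the granule lineage, had a UMI in 38.0% of members against 22.8% of mature gate nuclei, and Calb2 in 28.7% against 8.25%. Background RNA was gauged in 1006 nuclei with microglial markers and a median of 2087.5 UMIs, where Dcx had a UMI in 13.3%, Neurod1 in 7.55% and Calb2 in 5.67%. Members lay above this level for all 3 genes although they were shallower than the mature gate. Dcx, Neurod1 and Calb2 had a UMI in 58.7, 36.3 and 27.3% of shared cluster members. The other 213 members, which were deeper, had one in 69.5, 41.8 and 31.9%. These markers thus did not go against the label, but they do not tell the shared cluster members from the other 213.

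Accessibility was not used by the rule and could be tested. Over 88897 merged ATAC regions, 12075 (13.6%) were at least 2-fold higher in members than in mature gate nuclei of the same library and 18467 (20.8%) were lower (34.4% in all), at an adjusted p under 0.05 in edgeR's quasi-likelihood test. With the shared cluster alone, 10669 of 73683 regions were higher (14.5%) and 19904 lower (27%), 41.5% in all. The 5 regions with the smallest p in each direction were singled out. Sequences of 300 bases from the centres of 3 higher and 2 lower regions follow, from GRCm38.p6 (mm10) on the + strand, chosen from these 10 as examples in or near protein-coding genes with at least 1 motif match, and not by rank. Capitals mark a match, on either strand, to 1 of 5 short motifs that are named with their letters further on.
Tspan9 intron, higher in members: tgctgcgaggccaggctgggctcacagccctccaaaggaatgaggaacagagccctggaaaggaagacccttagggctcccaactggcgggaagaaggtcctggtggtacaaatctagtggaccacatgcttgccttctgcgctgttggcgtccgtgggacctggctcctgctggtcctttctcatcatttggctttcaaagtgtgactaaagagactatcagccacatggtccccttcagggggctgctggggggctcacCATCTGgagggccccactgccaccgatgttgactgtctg
Ttc28 intron, higher in members: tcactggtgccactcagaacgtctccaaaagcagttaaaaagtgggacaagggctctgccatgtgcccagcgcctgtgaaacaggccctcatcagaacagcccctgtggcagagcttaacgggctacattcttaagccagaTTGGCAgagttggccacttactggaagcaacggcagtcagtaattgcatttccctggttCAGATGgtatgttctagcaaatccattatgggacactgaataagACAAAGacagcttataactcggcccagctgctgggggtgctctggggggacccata
Epb41l1 intron, higher in members: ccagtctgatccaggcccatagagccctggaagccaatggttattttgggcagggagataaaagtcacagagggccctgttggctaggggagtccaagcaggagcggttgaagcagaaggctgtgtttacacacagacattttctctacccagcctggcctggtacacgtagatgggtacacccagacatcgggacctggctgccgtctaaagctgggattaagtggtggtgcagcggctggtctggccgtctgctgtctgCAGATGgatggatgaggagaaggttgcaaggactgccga
Intergenic near Mrtfb, lower in members: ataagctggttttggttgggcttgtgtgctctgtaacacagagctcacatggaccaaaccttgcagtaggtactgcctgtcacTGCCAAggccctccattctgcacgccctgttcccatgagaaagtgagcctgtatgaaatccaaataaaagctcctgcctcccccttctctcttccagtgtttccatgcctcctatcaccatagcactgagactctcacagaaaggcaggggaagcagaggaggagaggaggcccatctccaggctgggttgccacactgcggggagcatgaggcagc
Pdzd2 intron, lower in members: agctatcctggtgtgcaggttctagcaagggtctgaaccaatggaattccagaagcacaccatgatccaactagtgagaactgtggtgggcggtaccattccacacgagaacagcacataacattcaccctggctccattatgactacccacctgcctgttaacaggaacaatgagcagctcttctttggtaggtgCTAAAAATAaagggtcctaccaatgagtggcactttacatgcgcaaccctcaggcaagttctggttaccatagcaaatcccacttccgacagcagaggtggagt

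The region with the smallest p lay in an intron of Tspan9, a tetraspanin gene, at chr6:127992665-127993565, and the window printed for it covers chr6:127992964-127993263. It held 54.0, 65.1, 70.7 and 62.4 ATAC CPM in members and 1.33, 0, 1.90 and 1.23 in the mature gate. It was nearly closed in all 4 mature sums and open in all 4 member sums, a log2 difference of 5.81 ± 0.22 (SE, n = 4 libraries, adjusted p = 1.02e-22), and 6.17 with the shared cluster. The intronic region of Ttc28, a gene whose RNA was also high in members, lay at chr5:111200812-111201763 (window chr5:111201137-111201436) and held 63.2, 69.1, 58.9 and 54.0 ATAC CPM against 6.07, 7.22, 5.34 and 3.89. Its log2 difference was 3.58 ± 0.15 (adjusted p = 1.08e-21). A region in an intron of Epb41l1, which encodes a membrane skeleton protein of neurons, lay at chr2:156467186-156468150 (window chr2:156467514-156467813) with 47.2, 66.2, 68.6 and 43.7 ATAC CPM against 2.47, 5.67, 3.79 and 3.28. The other regions of this group were an exon of the pseudogene Aldoa-ps4 at chr9:79346322-79347264, with a log2 difference of 6.78 ± 0.28, and an intron of AC131675.3 on chromosome 18, with 4.22 ± 0.16.

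In the lower direction, an intergenic region 62703 bases from the start of Mrtfb, which encodes a coactivator of serum response factor, at chr16:13193328-13194223 (window chr16:13193629-13193928), held 2.36, 1.82, 6.28 and 5.34 ATAC CPM in members and 34.1, 43.8, 38.9 and 46.9 in the mature gate. Its log2 difference was -3.21 ± 0.22 (adjusted p = 8.14e-16). The shared cluster held 4, 2, 2 and 2 ATAC counts there. A region in an intron of Pdzd2, a gene for a PDZ domain protein, at chr15:12728048-12728973 (window chr15:12728357-12728656) held 5.51, 2.54, 4.71 and 3.34 ATAC CPM against 31.5, 45.1, 38.3 and 37.3. Both regions were lower in members of every library, with no overlap between the groups. The log2 difference at Pdzd2 was -3.04 ± 0.21, and the shared cluster held 0, 3, 0 and 0 of the 21, 7, 18 and 10 ATAC counts of members. The remaining counts of members at both sites thus came mostly from nuclei of other clusters. The remaining regions were intergenic near Spns3 at chr11:72566556-72567467 (-3.04 ± 0.21), an exon of AC165962.1 at chr17:30580734-30581631 (-2.25 ± 0.16), and a region annotated as coding sequence of Gm10800 at chr2:98666651-98667494. At Gm10800 counts were very high and the log2 difference was -0.47 ± 0.03, under 2-fold. Its central 300 bases hold the same long run of letters at both ends, and the part of repeats in these counts was not tested.

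Short motifs were counted in the central 300 bases of all 88897 regions, on both strands, and none of the 5 contains another. The NeuroD-type E-box CAGATG was found in 44.2% of regions higher in members, 39.7% of lower regions and 34.8% of all regions. The nuclear factor I half-site TTGGCA was found in 34.6%, 26.7% and 25.2%, and the SOX core ACAAAG in 25.6%, 21.3% and 21.3%. The AP-1 motif TGANTCA went the other way, with 8.57% of higher and 17.05% of lower regions against 11.03% of all, and the MEF2 motif CTAAAAATA was found in 0.455%, 2.13% and 1.06%. Higher regions lay within 1000 bases of a gene start in 13.98% and lower regions in 8.08%, against 22.3% of all regions. Away from starts, the higher regions again held more E-boxes (47.5%, against 40.2% of lower and 40.0% of all regions), more TTGGCA (36.8%, 27.1% and 28.4%) and more ACAAAG (26.3%, 21.6% and 23.4%), and fewer AP-1 motifs (9.16%, 17.3% and 12.6%). Across 32851 RefSeq promoters, the shares in the 250 bases before the start were 14.4% (CAGATG), 12.3% (TTGGCA), 16.5% (ACAAAG), 6.75% (TGANTCA) and 0.469% (CTAAAAATA). This window is shorter than the 300 bases taken from regions. These counts describe letters in windows, not bound sites.

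Of the 8 rule genes, all were more accessible over the gene (its body and 2000 bases before it) in members than in the mature gate. At this level 4171 of 21289 genes were higher (19.6%) and 4593 lower (21.6%) at an adjusted p under 0.05 and 1.2-fold, 41.2% in all, and 21.7% were higher and 23.5% lower with the shared cluster (45.2% in all). Differences in accessibility are given on the log2 scale ± SE over 4 libraries. The nuclei were chosen by RNA of these same genes, so the chromatin is a separate readout of nuclei already known to hold the transcripts. All 8 were also higher with the shared cluster and against the transitional gate, which comprised 689 Prox1 positive nuclei with at least 2 of the 6 transitional genes and fewer than 3 rule genes.

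Igfbpl1, which encodes an insulin-like growth factor binding protein relative, held 599, 405, 497 and 283 RNA CPM in members, 43.1, 20.4, 35.6 and 20.6 in the transitional gate and 6.97, 5.46, 5.10 and 4.57 in the mature gate. The region over its start, at chr4:45826272-45827208 on the gene's coding sequence, held 32.8, 30.9, 29.8 and 20.3 ATAC CPM in members and 6.07, 4.12, 6.72 and 4.91 in the mature gate, a log2 difference of 2.49 ± 0.21 (adjusted p = 5.01e-13). Both readouts were higher in members of all 4 libraries. Sema3c, a secreted semaphorin that guides axons and migrating cells, held 964, 848, 769 and 797 RNA CPM in members, 14.9, 11.2, 20.9 and 26.6 in the transitional and 1.10, 4.25, 1.02 and 2.08 in the mature gate. Its start region at chr5:17574146-17575062, centred on the 5′ UTR, held 26.2, 20.0, 34.0 and 20.7 ATAC CPM against 7.78, 2.32, 5.17 and 8.19, a log2 difference of 2.24 ± 0.23. Draxin, a repulsive guidance protein that binds the netrin receptor, held 40.3, 48.3, 22.3 and 36.7 RNA CPM, with 2 UMIs in the whole mature gate. The region over its start, at chr4:148130389-148131250, also lay in an intron of the neighbouring gene Mad2l2, so its log2 difference of 2.51 ± 0.20 cannot be given to Draxin alone.

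Cd24a, a surface glycoprotein of immature neurons, held 136, 73.8, 91.4 and 61.5 RNA CPM in members and 1.47, 0.607, 2.38 and 0 in the mature gate, and its gene accessibility differed by log2 3.28 ± 0.17 on the log2 scale (adjusted p = 1.08e-55). No region shared by all libraries lay over the starts of Cd24a and Tac2. St8sia2, the sialyltransferase that puts polysialic acid on NCAM, held 68.2, 80.5, 52.8 and 58.5 RNA CPM, and the region over its start at chr7:74013249-74014194, with its centre just outside the gene, differed by 2.55 ± 0.27. Sox11, a SOX factor of newborn neurons, held 469, 405, 331 and 318 RNA CPM in members, 61.2, 51.1, 46.4 and 51.9 in the transitional gate and 37.1, 29.7, 27.2 and 29.9 in the mature gate. Its start region at chr12:27342491-27343396 was open in both groups, with 84.4, 90.9, 94.8 and 79.4 ATAC CPM against 56.3, 41.0, 54.6 and 46.7. The difference at Sox11 was thus one of degree, 0.94 ± 0.10 on the log2 scale, while the starts of Igfbpl1 and Gal differed several-fold. The neuropeptide precursors Gal (galanin) and Tac2 (neurokinin B) held 76.4, 44.3, 61.7 and 27.8 and 89.6, 55.0, 94.4 and 34.7 RNA CPM. Both peptides were lowest in HF2. Gal had 1 UMI in all mature gate nuclei together, and the region over its start at chr19:3414047-3414987, centred on the UTR, held 6.03, 12.0, 8.38 and 6.34 ATAC CPM in members against 0.948, 0.773, 0.689 and 2.25, a log2 difference of 2.90 ± 0.45 (adjusted p = 9.79e-07).

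The promoter of Gal lies in that region and is shown because RNA and accessibility were both low in the mature gate, which itself limits RNA of rule genes. The 250 bases before its start (RefSeq, GRCm38.p6, chr19:3414545-3414794, - strand), printed 5′ to 3′, held none of the 5 motifs, which says only that these letters are not in this window.
Gal promoter: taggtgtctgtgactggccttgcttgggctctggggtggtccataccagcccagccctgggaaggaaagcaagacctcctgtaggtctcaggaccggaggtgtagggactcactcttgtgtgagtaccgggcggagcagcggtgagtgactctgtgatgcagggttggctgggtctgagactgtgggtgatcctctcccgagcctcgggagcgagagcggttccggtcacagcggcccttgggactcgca

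**Figure D1:**
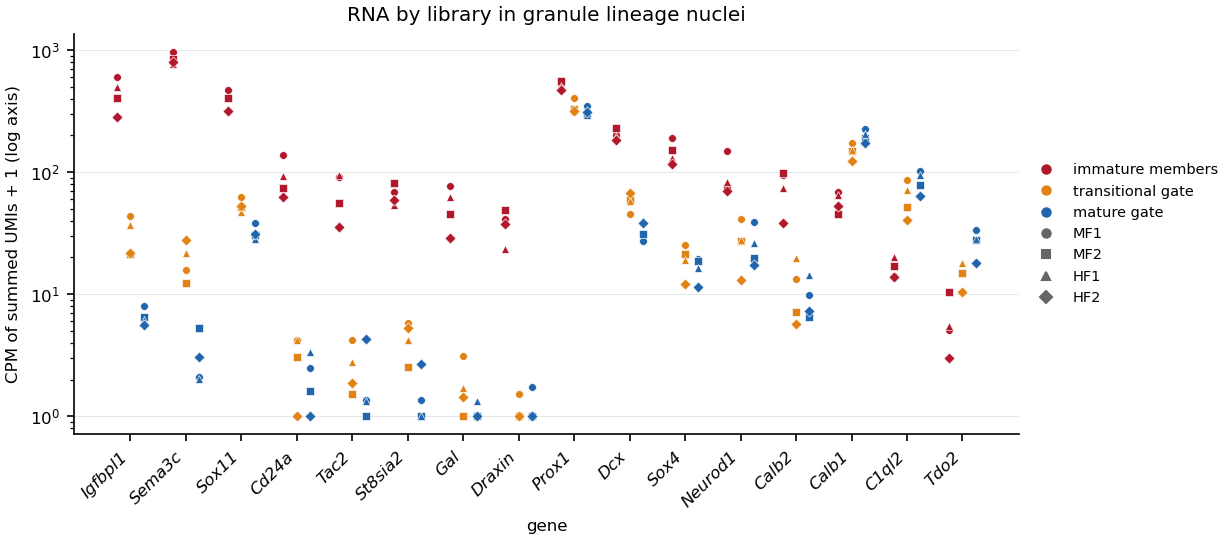
RNA of 16 genes by library, as CPM of the summed UMIs plus 1 on a log axis, in immature members (red), the transitional gate (orange) and the mature gate (blue), with 1 symbol per library. The 8 rule genes, which chose the members, are on the left, and Dcx, Sox4, Neurod1 and Calb2 on the right are higher in members of all 4 libraries while Calb1, C1ql2 and Tdo2, which chose the mature gate, are lower.

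**Figure D2:**
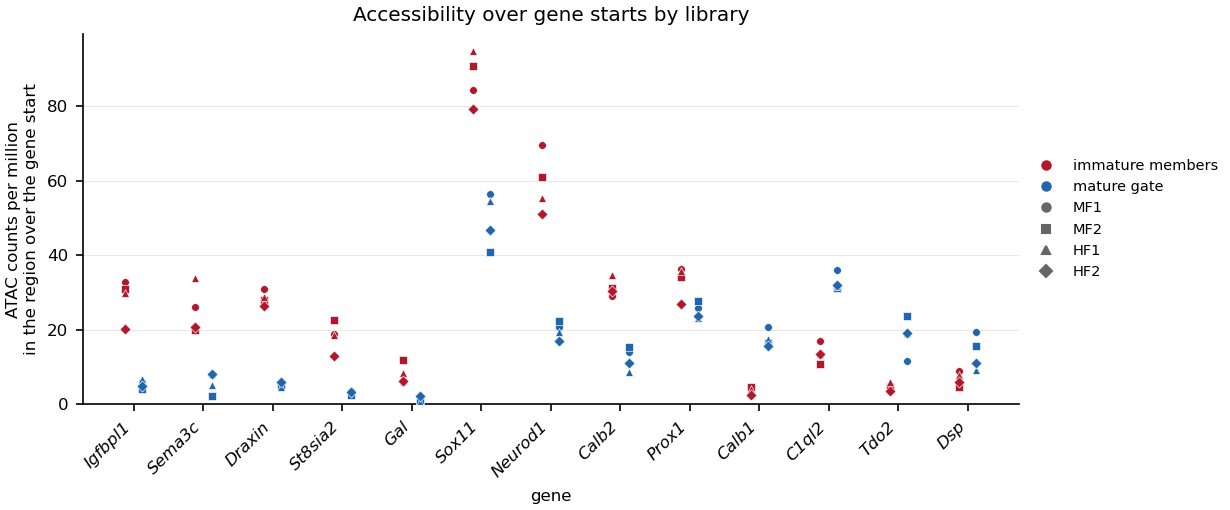
ATAC CPM in the region over the start of 13 genes, in members (red) and the mature gate (blue), with 1 symbol per library. The member values of Igfbpl1, Draxin, St8sia2 and Neurod1 lie above all mature values and those of Calb1, C1ql2, Tdo2 and Dsp lie below.

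The 6 transitional genes, whose RNA the rule and the mature gate both limit, were split in accessibility against the mature gate. Rasef and Lepr (the leptin receptor) were higher at log2 0.82 ± 0.32 and 0.56 ± 0.16, Cdhr1, Tex15 and Myo5b were lower at -1.13 ± 0.28, -0.39 ± 0.14 and -0.95 ± 0.06, and Glra2 was not called (0.35 ± 0.35).

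Genes of immature neurons outside the rule were also more open. Of 20 such genes, 17 were higher in gene accessibility and none was lower, with a median log2 difference of 0.53 against 0.01 over all genes, and 17 were higher with the shared cluster as well. Over all genes 19.6% were higher and 21.6% lower, and 21.7% and 23.5% with the shared cluster. In RNA, 12 of the 20 were at least 2-fold higher in every library and none was lower, where 383 of 10635 genes (3.6%) were higher and 203 (1.91%) lower. With every nucleus thinned to 2000 UMIs, which leaves out shallower nuclei and counts fewer genes, 278 of 5418 genes were higher and 300 lower. The balance of higher and lower RNA genes also turned in the shared cluster without thinning, with 628 higher and 780 lower of 9884. Why it turned was not tested. The rule chose the nuclei by RNA, so the RNA counts are a description. Dcx held 199.7, 228, 198 and 181 CPM in members and 26.4, 30.3, 39.8 and 37.0 in the mature gate, 4.90 to 7.56 times the mature level across libraries, with a gene accessibility difference of 0.45 ± 0.17 (adjusted p = 0.0256). Sox4, the partner of Sox11 in newborn neurons, held 189.9, 152, 129 and 115 CPM against 18.3, 17.6, 15.3 and 10.4, and its accessibility differed by log2 0.87 ± 0.11 (adjusted p = 1.80e-12). The members of each library exceeded every mature sum in RNA for both genes. The accessibility call of Dcx was lost without MF2 (0.27), without HF1 (0.40), with DESeq2 (0.44) and with at least 4 rule genes (0.42). Calb2 held 92.9, 96.6, 72.9 and 37.7 CPM against 8.81, 5.46, 13.3 and 6.23, and the region over its start at chr8:110167805-110168707 differed by 1.503 ± 0.17. Neurod1 held 147, 72.5, 81.8 and 69.4 CPM against 38.2, 18.8, 25.5 and 16.2. The region over its start at chr2:79456381-79457261, which overlaps an intron of Gm26755 and lies next to the start of Cerkl, held 69.7, 61.1, 55.5 and 51.0 ATAC CPM against 20.7, 22.4, 19.5 and 17.0, a log2 difference of 1.71 ± 0.12 (adjusted p = 2.27e-15). Other genes of the list called higher in accessibility were the tubulin gene Tubb2b at 1.197 ± 0.13, the stathmins Stmn1 at 0.80 ± 0.09 and Stmn2 at 1.04 ± 0.09, and the imprinted gene Nnat at 1.004 ± 0.17. The genes not called were Crmp1 at 0.02 ± 0.08, Ncam1 at -0.18 ± 0.06, whose difference was under 1.2-fold, and St8sia4 at 0.12 ± 0.14, the second polysialyltransferase.

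Genes of neural progenitors had little RNA in members, but several stood more open than in the mature gate. Of 18 progenitor genes tested in accessibility, 10 were higher and none lower, beside 19.6% and 21.6% of all genes. With the shared cluster 10 were higher and 2 lower, beside 21.7% and 23.5%. Of 5 markers of oligodendrocyte precursors, 3 were also higher and none lower (median log2 0.57), and 2 were higher and 1 lower with the shared cluster (median 0.04). Of 5 Cajal-Retzius cell markers, 3 were higher and none lower in both cases (median 0.88 and 1.12). Of 6 astrocyte markers none was called with all members, and 3 were lower with the shared cluster. The part of other cell types in the progenitor values was not tested. Sox2, a factor of neural stem cells, held 13.97, 22.8, 12.6 and 15.9 RNA CPM and 10.8, 6.63, 6.15 and 7.15 in the shared cluster, 13 UMIs in all, while its accessibility differed by log2 2.61 ± 0.21 (adjusted p = 9.37e-28) and by 2.81 with the shared cluster. Eomes (Tbr2) and Insm1, which mark intermediate progenitors, held 25 and 12 UMIs in all members. Their accessibility differed by log2 2.19 ± 0.35 and 2.17 ± 0.15, so these genes were more open in members while their RNA amounted to a few UMIs per library. Pax6 differed by log2 1.12 ± 0.13 and Neurog2 by 0.96 ± 0.21. The mitotic genes Mki67 and Top2a did not pass the test, at 0.35 ± 0.15 and 0.22 ± 0.13, and 1 of the 49 Top2a UMIs of members came from the shared cluster.

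Genes of mature granule neurons were less accessible in members. Of 16 such genes, 15 were lower and none higher, with a median log2 difference of -0.61, and 13 were lower with the shared cluster. Over all genes 21.6% were lower with all members and 23.5% with the shared cluster. Of these 16, 6 are gate genes, whose RNA chose the mature nuclei. Calb1 held 67.4, 44.3, 63.9 and 51.5 RNA CPM in members against 224, 191, 204 and 172 in the mature gate, and the region over its start at chr4:15880806-15881731 held 4.46, 4.73, 4.19 and 2.67 ATAC CPM against 20.7, 16.5, 17.6 and 15.6. No member value reached the mature range, and the log2 difference was -2.00 ± 0.27 (adjusted p = 4.94e-08), with 0.887, 3.57, 0.975 and 0 ATAC CPM in the shared cluster. C1ql2 and C1ql3, secreted C1q-like proteins of mossy fibre synapses, differed by log2 -1.33 ± 0.13 and -1.01 ± 0.17 in gene accessibility. The region over the start of Tdo2, tryptophan dioxygenase, differed by -1.76 ± 0.26. Outside the gate, the neurotrophins Ntf3 and Bdnf were lower at log2 -1.15 ± 0.10 and -0.55 ± 0.08. Bdnf held 45.2, 38.9, 59.5 and 29.7 RNA CPM in members against 101, 103, 104 and 94.3. Dsp, desmoplakin, was lower over the gene with all members (-0.42 ± 0.14, adjusted p = 0.00858) but not with the shared cluster (-0.06, adjusted p = 0.788). The region over its start was lower at log2 -0.83 ± 0.26 with all members (adjusted p = 0.00837). With the shared cluster it was lower at -0.75 ± 0.31 (adjusted p = 0.0399), and both differences were under 2-fold. Of the 16, Trhr was not called, at 0.36 ± 0.35.

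Of 20 transcription factors of the lineage, 8 were higher, 5 lower and 7 not called in accessibility, beside 19.6% higher and 21.6% lower over all genes. With the shared cluster 10 were higher and 5 lower, beside 21.7% and 23.5%, and in both cases the count of lower factors is near the share over all genes. Prox1 held 529, 557, 503 and 472 RNA CPM in members and 349, 298, 293 and 310.5 in the mature gate, which the rule in part set. Its gene accessibility differed by log2 0.09 ± 0.09 (adjusted p = 0.422) with all members and by 0.42 ± 0.10 (adjusted p = 9.07e-04) with the shared cluster. The region over its start held 36.4, 34.2, 35.9 and 27.0 ATAC CPM in members against 26.0, 27.8, 23.3 and 23.7, a log2 difference of 0.54 ± 0.14 (adjusted p = 0.00109) although the groups overlapped. The 3 nuclear factor I genes of the list, which promote the move from progenitor to neuron, were higher, with Nfix at 0.81 ± 0.05, Nfib at 0.55 ± 0.05 and Nfia at 0.41 ± 0.05. Nfib held 2080.4, 2422, 1922 and 2208 RNA CPM in members against 881, 918, 869 and 923, with no overlap. Tcf4 was higher by log2 0.31 ± 0.05. Rfx3, Klf9 and the mineralocorticoid receptor Nr3c2 were lower at log2 -0.37 ± 0.07, -0.35 ± 0.08 and -0.43 ± 0.07. The glucocorticoid receptor gene Nr3c1 was lower at log2 -0.32 ± 0.09, and 18 of its 274 UMIs in members came from the shared cluster.

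Of 38 axon guidance genes, Sema3c and Draxin included, 11 were higher, 9 lower and 18 not called in accessibility, with a median log2 difference of 0.07. Over all genes 19.6% were higher and 21.6% lower, so the count of lower genes is near that share. Among shared cluster members 14 were higher and 6 lower, beside 21.7% and 23.5%. In RNA, 12 of 35 were at least 2-fold higher in all libraries and 2 lower, beside 3.6% and 1.91% of all genes, and the median log2 difference was 0.62 against 0.16 over all genes. The netrin receptor Dcc held 4599, 5329, 4466 and 4929 CPM in members against 889, 1263, 1073 and 1287, 3.83 to 5.17 times the mature level, and its accessibility was higher by log2 0.36 ± 0.06 (adjusted p = 1.39e-07). Plxna3, a semaphorin receptor subunit, held 19.7, 25.5, 16.4 and 21.8 CPM against 4.04, 5.46, 5.45 and 4.99 and was higher by log2 1.28 ± 0.22 in accessibility, and the ephrin receptor Ephb1 was higher by log2 0.74 ± 0.06. Plxna2, another plexin, held 662, 659, 619 and 567 CPM against 142, 155, 131 and 185, yet its accessibility did not pass the test (-0.13 ± 0.07). Nrp1, the neuropilin that binds class 3 semaphorins, held 763, 846, 742 and 835 CPM against 446, 441, 369 and 480.0 but was less accessible, at -0.53 ± 0.08 (adjusted p = 1.37e-10). Unc5a went the opposite way, with 17.3, 20.1, 20.1 and 18.8 CPM against 50.3, 43.1, 35.1 and 37.0 and an accessibility difference of 0.34 ± 0.08. RNA and chromatin differed in sign for these 2 receptors. For Unc5c, Slit1, Ntng1 and Epha5, the shared cluster gave 17 of 2169, 3 of 294, 13 of 559 and 166 of 2543 member UMIs. The RNA of these genes in members thus came nearly all from nuclei of other clusters.

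Of 16 genes of neuronal migration and the reelin pathway, 6 were higher, 3 lower and 7 not called in accessibility, beside 19.6% higher and 21.6% lower over all genes, and the count of lower genes is near that share. The counts were 6 and 4 among shared cluster members, beside 21.7% higher and 23.5% lower over all genes. Lrp8, a reelin receptor, held 136, 156, 109 and 118 RNA CPM in members against 55.8, 43.1, 38.8 and 45.7 and was higher by log2 0.51 ± 0.06 in accessibility. The chemokine receptor Cxcr4 had 26 UMIs in members and 1 in the mature gate, and was higher by log2 0.99 ± 0.16. Astn2, which acts in migration along glia, was higher by log2 0.43 ± 0.06, while Disc1 and Mdga2 were lower at log2 -0.74 ± 0.06 and -1.02 ± 0.08. Dab1, the reelin adaptor, held 2948, 3447, 3069 and 3797 CPM against 3171, 3805, 3389 and 4190.2 and did not pass the test in accessibility (-0.08 ± 0.04).

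Genes of synapses, GABA receptors and ion channels were mostly less open in members. Of 32 synapse genes, 19 were lower, 2 higher and 11 not called, with a median of -0.31. Of 14 genes of GABA type A receptors and chloride transport, 10 were lower and 1 higher (median -0.53), and of 17 channel genes, 11 were lower and 2 higher (median -0.45). Over all genes 21.6% were lower and 19.6% higher. Shared cluster members had 17 synapse genes lower and 4 higher, 10 GABA and chloride genes lower and 1 higher, and 9 channel genes lower and 4 higher, beside 23.5% and 21.7%. In RNA, 4 synapse genes, 2 GABA and chloride genes and no channel gene were 2-fold lower in every library, beside 203 of all 10635 genes (1.91%). In the other direction, 1 synapse gene, no GABA or chloride gene and 1 channel gene were 2-fold higher, beside 3.6% of all genes. The lower counts were 9, 6 and 5 with the shared cluster, where lower genes were also more numerous over all genes, at 780 of 9884 (7.89%). The higher counts there were 2, 0 and 0, beside 6.35% of all genes. Camk2a, the kinase of excitatory synapses, held 304, 227, 312 and 318 CPM in members, 109.8, 63.0, 84.0 and 85.8 in the shared cluster and 865, 761, 715 and 773 in the mature gate. Its accessibility was lower at log2 -1.35 ± 0.08 (adjusted p = 4.04e-49). The NMDA receptor subunit Grin2a held 710.2, 769, 912 and 1195 CPM, 162, 212, 184 and 239 in the shared cluster and 2211, 2691, 2248 and 2864 in the mature gate, and was less accessible at log2 -1.52 ± 0.06 (adjusted p = 7.12e-86). Grin2b, the subunit of early NMDA receptors, held 1354, 1683, 1488 and 1569 CPM against 1633, 1922, 1685 and 1852. Its RNA was lower in members of each of the 4 libraries although the ranges overlapped across libraries, and its accessibility was lower at log2 -0.66 ± 0.06. The vesicular glutamate transporters went in opposite directions. Slc17a6, of immature neurons, held 56.7, 61.7, 47.6 and 52.5 CPM in members against 5.50, 5.46, 9.53 and 7.48 and was higher by log2 1.02 ± 0.16, while Slc17a7, which the mature gate required, was lower at log2 -0.82 ± 0.09. The other synapse gene called higher was Dlg4 (PSD-95), at 0.38 ± 0.07.

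Among chloride transporters, Slc12a5 held 39.5, 26.8, 37.9 and 34.7 CPM in members against 95.02, 68.6, 63.3 and 55.3, below the mature range in every library, and was less accessible at log2 -0.50 ± 0.09 (adjusted p = 6.35e-07). Slc12a2 held 136, 118, 98.9 and 138 CPM against 62.4, 69.2, 88.5 and 78.6, and its accessibility did not pass the test (0.03 ± 0.09, adjusted p = 0.806). Gabrd, the GABA type A receptor subunit of tonic receptors, was lower at log2 -0.84 ± 0.18, and Gabra3, an early subunit, was higher by log2 0.60 ± 0.20. The potassium channel gene Kcnd2 held 1653, 2024, 1902 and 2602 CPM in members, 603, 945, 754 and 1247 in the shared cluster and 3712, 4692, 3927 and 5171 in the mature gate, with a difference of -1.57 ± 0.08 in accessibility (adjusted p = 2.42e-62). The potassium channel gene Kcnq5 was higher by log2 0.44 ± 0.07.

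**Figure D3:**
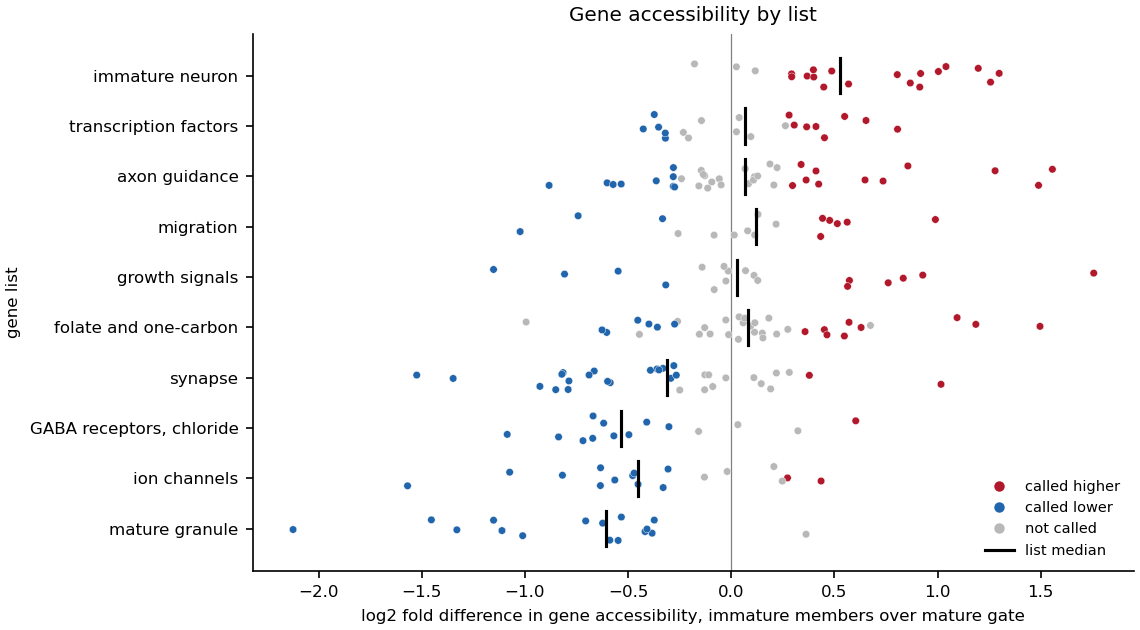
Log2 difference in gene accessibility between immature members and the mature gate for the genes of 10 lists, 1 point per gene over 4 libraries, with called higher in red, called lower in blue, not called in grey and the list median as a black bar. Immature neuron genes lie mainly above 0, and the synapse, GABA, ion channel and mature granule lists mainly below.

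Growth signal genes went both ways, with 6 of 18 higher, 4 lower and 8 not called in accessibility, beside 19.6% higher and 21.6% lower over all genes, and the count of lower genes is near that share. The counts were also 6 and 4 with the shared cluster, beside 21.7% higher and 23.5% lower over all genes. Fgfr1, the fibroblast growth factor receptor, held 323, 322, 282 and 259 RNA CPM in members against 42.2, 45.5, 44.6 and 31.2, 6.32 to 8.30 times the mature level, and was higher by log2 0.76 ± 0.08 (adjusted p = 9.05e-19). The insulin receptor gene Insr was higher by log2 0.83 ± 0.08, and Id2, an inhibitor of proneural factors, by 0.56 ± 0.10. Of 14 neuropeptide genes, 11 could be tested, with Gal and Tac2 higher, Cck and Pdyn lower at -0.87 ± 0.23 and -0.59 ± 0.16, and 7 not called. These counts are near the 19.6% higher and 21.6% lower over all genes, and both higher genes are rule genes. Of 9 tested in the shared cluster, 3 were higher and 2 lower, beside 21.7% and 23.5% over all genes.

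Folate and 1-carbon metabolism makes nucleotides and methyl groups. Of 37 such genes, 36 were tested in accessibility, with 9 higher, 6 lower and 21 not called and a median of 0.08. Both counts lie near the shares over all genes, 19.6% higher and 21.6% lower, so the genes below are described one by one. Shared cluster members had 8 higher and 7 lower, beside 21.7% and 23.5% over all genes. Aldh1l2, the mitochondrial enzyme that oxidizes 10-formyltetrahydrofolate, held 41.1, 29.5, 26.0 and 33.7 RNA CPM in members, 75.6, 49.7, 55.3 and 67.9 in the shared cluster and 2.20, 2.43, 2.72 and 1.66 in the mature gate. Every member sum lay 9.56 to 20.3 times above its mature counterpart. The region over its start at chr10:83533569-83534339 was higher by 1.45 ± 0.28 (adjusted p = 4.30e-05). Mthfd2l, a mitochondrial folate dehydrogenase, held 51.0, 63.1, 50.6 and 35.7 CPM against 20.2, 19.4, 18.0 and 21.2 and was higher by log2 0.63 ± 0.13. The de novo methyltransferase gene Dnmt3b was higher by log2 1.09 ± 0.13 at 34 UMIs in all members, and Dnmt3a was lower at log2 -0.27 ± 0.07. Ahcyl2, a relative of adenosylhomocysteinase, held 344, 349, 435 and 551 CPM against 1472, 1499, 1496 and 1690.3 and was lower at log2 -0.60 ± 0.07. Bhmt, betaine-homocysteine methyltransferase, was more accessible by log2 1.497 ± 0.20 with 1 UMI in all members. The folate carrier gene Slc19a1 held 4.93, 4.03, 9.66 and 6.94 CPM, overlapping the mature values of 1.66 to 6.97, and did not pass in accessibility. Folr1 had 0 UMIs in members, for which 3 UMIs is the limit that a count of 0 allows.

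Among genes outside the rule and the gates, those with the highest RNA ratio to the mature gate in their least extreme library were 2610307P16Rik, Pappa2, Syt9, Tacr1, Triobp, Col12a1, Lypd6, Prkch, Nox4, Fam163a, Adamts18, Shroom3, Mtss1, Aldh1l2 and Ttc28. Tacr1, the substance P receptor, held 19.7, 20.1, 20.1 and 30.7 CPM in members against 0.367, 0.607, 1.02 and 0.416. Pappa2, a protease that cleaves insulin-like growth factor binding proteins, held 63.3, 59.1, 40.1 and 53.5 CPM against 0.734, 2.43, 1.70 and 2.08. Lypd6, a modulator of nicotinic receptors and Wnt signals, held 111, 125, 103 and 110.0 CPM against 5.87, 4.85, 7.83 and 2.49 and was higher by log2 1.46 ± 0.09 in accessibility (adjusted p = 6.81e-47). Ttc28 held 579, 600.0, 544 and 485 CPM against 38.2, 47.9, 57.9 and 47.8, 9.41 to 15.2 times the mature level, and was higher by log2 1.10 ± 0.05. At the low end were 5830408C22Rik, Trpc6, Il1r1, Ano2, Gm16267, Myadml2os, Gm42864, Cemip, Gpc4, Glis3, Gm6999, Chst9, Arsj, Trpm3 and Npnt. Il1r1, the interleukin 1 receptor, held 4.11, 6.71, 8.18 and 6.94 CPM in members and 0 UMIs in the shared cluster (3 UMIs is the limit that this allows) against 49.2, 46.7, 37.1 and 46.5 in the mature gate, and was lower at log2 -0.96 ± 0.09 in accessibility. Trpc6, a cation channel, held 39.5, 28.2, 32.0 and 31.7 CPM against 195, 185, 248 and 239 and was lower at log2 -0.62 ± 0.15. Cemip, a hyaluronan binding protein, held 26.3, 24.2, 29.0 and 27.8 CPM against 123, 112, 117 and 105, while its accessibility differed by log2 -0.03 ± 0.07 and did not pass.

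Over 10372 genes with both readouts, the RNA and accessibility differences correlated with Pearson's r = 0.515 and Spearman's rho = 0.446. This is a description across genes of the same nuclei, which share libraries and depth and are not independent replicates. Of 358 genes 2-fold higher in RNA in every library, 224 (62.6%) were higher in accessibility and 10 lower, where 17.6% of all 10372 were higher. Of 181 genes lower in RNA, 156 (86.2%) were lower in accessibility and 4 higher, where 20.9% of all were lower. The correlation was 0.482 over 9672 genes with the shared cluster. The count of RNA genes at least 2-fold apart in every library grew from 586 with all members to 1408 of 9884 with the shared cluster, of which 628 were higher (6.35%) and 780 lower (7.89%).

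**Figure D4:**
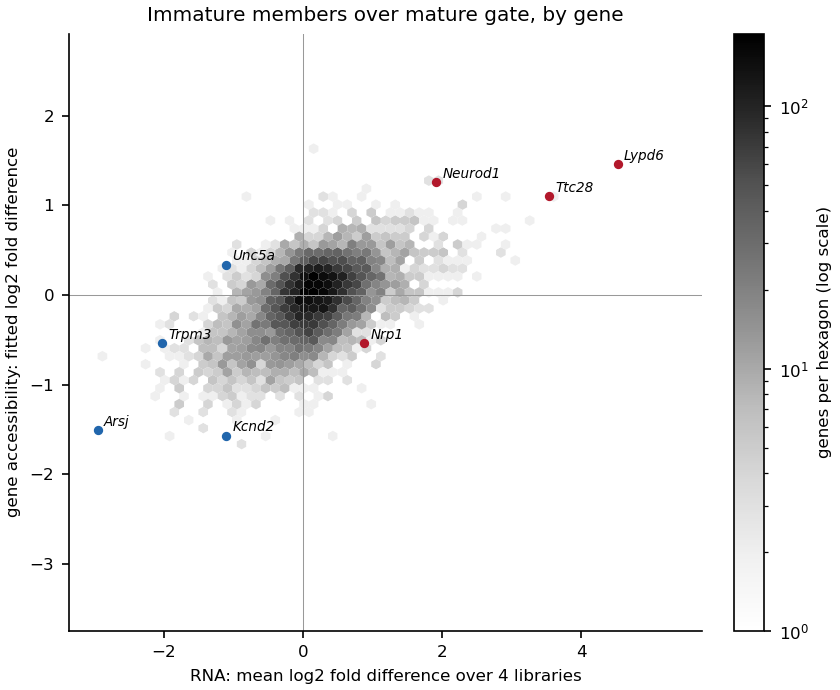
Members against the mature gate for 10372 genes, with the mean log2 RNA difference over 4 libraries on the x axis, the fitted log2 difference in gene accessibility on the y axis and grey hexagons shaded by the number of genes on a log scale. Lypd6, Ttc28 and Neurod1 lie high on both axes, Arsj, Kcnd2 and Trpm3 low on both, and Nrp1 and Unc5a in the quadrants where the signs differ.

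Against the transitional gate, the neighbouring stage, 3699 of 21220 genes were higher in accessibility (17.4%) and 4054 lower (19.1%), 36.5% in all. With the shared cluster 19.8% were higher and 22.2% lower of 20261 (42% in all). Of the 20 immature neuron genes, 15 were higher. Neurod1 was higher by log2 1.10 ± 0.11, Sox4 by 0.73 ± 0.12 and Dcx by 0.41 ± 0.17. Of the 16 mature granule genes, 12 were lower, with Calb1 at -1.99 ± 0.22. The synapse list held 18 lower genes and 2 higher ones, Grin2a lower at log2 -1.34 ± 0.06. These lists went in the same directions as against the mature gate. Both comparisons share the member sums and are not independent.

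The share of members could not be told apart between diets at 2 libraries each. Members made up 7.59, 6.09, 6.22 and 5.14% of kept nuclei, with exact 95% intervals of 6.65 to 8.61% in MF1 and 4.37 to 6.01% in HF2 that cover counting error only. The mean was 6.84 ± 1.06% in MF and 5.68 ± 0.76% in HF (SD, n = 2 libraries), and the ranges overlapped, since HF1 lay above MF2. The difference of -1.16 percentage points had p = 0.667 in a two-sided exact permutation test, where 2 libraries a diet cannot go below 0.333. As a share of granule nuclei (members, transitional and mature gates together), members made up 34.6, 32.1, 32.1 and 28.4%, a difference of -3.10 points (exact p = 0.667), and the adjusted p was 1 for both shares. With the shared cluster the differences were -1.15 and -4.09 points. After each nucleus was thinned to 2000 UMIs, the share of kept nuclei differed by -1.07 points and the share of granule nuclei by 1.53 points, with the sign turned. Thinning left 139, 76, 121 and 74 members of 2698, 2041, 3118 and 2588 nuclei that had enough UMIs.

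**Figure D5:**
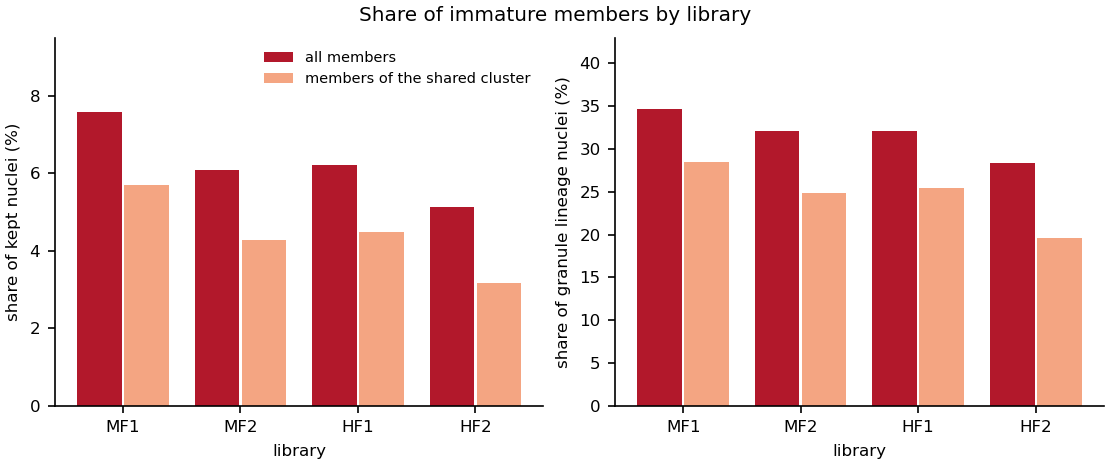
Immature members as a share of kept nuclei (left) and of granule lineage nuclei (right) in each library, for all members (red) and members of the shared cluster (orange), as bars from 0. The 4 libraries lie between 5.14 and 7.59% of kept nuclei for all members, and HF1 lies just above MF2.

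In RNA, no gene of members passed the test of diet. Of 10597 genes tested in library sums, 0 (0%) were called with edgeR at an adjusted p under 0.05 and 1.2-fold, 452 had an unadjusted p under 0.05, and DESeq2 also called 0 with 145 unadjusted. In simulated counts, the test recovered 0 of 50 genes changed 1.5-fold, 20 of 50 changed 2-fold and 48 of 50 changed 4-fold. Differences of 1.5-fold to 2-fold could thus go uncalled. The simulation changed only genes above a minimum mean count, so recovery of genes with fewer counts was not tested. The count of called genes rested on the libraries and nuclei taken. It was 190 (80 higher in HF, 110 lower) without HF1, 16 without MF1, 10 without MF2 and 0 without HF2, where the lone library of a diet was assumed to vary like the others. It was 0 with at least 4 rule genes, 0 without members with markers of another cell type and 0 with RNA filters only. Without members of a doublet score over 0.05 it was 78 of 8658 genes, 77 of them higher in HF. This filter took out 44, 29, 38 and 33 members, of which 1, 0, 0 and 0 lay in the shared cluster. The other clusters held 55, 41, 60 and 57 members before it. The part of this removal in the 78 calls was not tested. The shared cluster held 8.50% of the member UMIs of those 78 genes, against 37.6% over all genes, and of 34 of them that could be tested in the shared cluster 5 had an unadjusted p under 0.05. In the shared cluster itself, 4 of 6821 genes (0.0586%) were called, all lower in HF and all haemoglobin genes (Hba-a1, Hba-a2, Hbb-bs and Hbb-bt), with 137 genes at an unadjusted p under 0.05.

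Hbb-bs, the beta globin of red blood cells, held 1605, 175, 123 and 141 CPM in members and 3032, 282, 197 and 254 in the shared cluster. MF1 alone was far above the other libraries, MF2 lay close to both HF libraries, and the mature gate also had its highest value in MF1, with 445, 90.4, 104 and 74.0 CPM. Over all members, the log2 difference of -2.62 ± 0.71 was -0.35 without MF1. The part of red blood cell RNA in this difference was not tested.

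Among genes with the smallest p whose diets did not overlap, Tox, a nuclear factor, held 65.8, 42.95, 139.8 and 145 CPM in members, a log2 difference of 1.47 ± 0.25 (unadjusted p = 1.20e-04, adjusted p = 0.807 in edgeR's test). It passed the adjusted threshold without MF1 (1.78), without HF1 (1.55) and without doublet scores over 0.05 (4.12). It had 1 UMI in the shared cluster of 446 in members, so these values came from the nuclei of other clusters. Likewise Fras1 had 2 of 202 UMIs in the shared cluster, Spock1 14 of 462, Cpne4 17 of 413 and Hs3st4 38 of 1319. Rnf19b, a ubiquitin ligase, held 6.58, 5.37, 20.1 and 24.8 CPM in members and 1.80, 6.63, 20.5 and 35.7 in the shared cluster, higher in both HF libraries in either set (log2 difference 1.96 ± 0.44, adjusted p = 0.999). In the other direction Vps37d, a subunit of the endosomal sorting complex, held 29.6, 24.2, 11.2 and 5.95 CPM in members and 37.8, 33.2, 18.4 and 10.7 in the shared cluster (-1.52 ± 0.40, adjusted p = 0.999). Zfhx2os, antisense to Zfhx2, held 24.7, 30.9, 8.18 and 9.91 CPM (-1.50 ± 0.39). Csf1r and Ly86, genes of microglia, held 30.4, 57.7, 14.9 and 13.9 and 40.3, 33.6, 14.9 and 1.98 CPM, and Anln, of dividing cells and oligodendrocytes, held 27.1, 24.2, 9.66 and 7.93 CPM. These 3 genes stood lower in both HF libraries, as did the summed microglia and cycling markers of the same members given above, and their adjusted p was 0.999. Summed astrocyte markers stood the other way, at 153, 129, 258 and 192 CPM in members, with all 4 tested genes above 0 and at an unadjusted p under 0.05 (median log2 0.89). In the shared cluster the diets overlapped, with 52.2 and 99.5 CPM in MF1 and MF2, 117 in HF1 and less than in either MF library in HF2. Their part in the diet values was not tested. The other genes of this group were Gm49678, Agbl4, Cntnap5c and Lnx1 on the higher side and AA386476, Zfp729b, Hba-a1, Hba-a2 and Hbb-bt on the lower side.

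By list, the immature neuron genes showed no called member. Of 20 tested, 15 were below 0 and 5 above, with a median log2 difference of -0.24 and 1 unadjusted p under 0.05, where 5342 of all 10597 genes were above 0. In the shared cluster 11 were below 0 and 9 above, with a median of -0.05 and no unadjusted p under 0.05. That 1 gene was Calb2, with 92.9, 96.6, 72.9 and 37.7 CPM (-0.66 ± 0.28, unadjusted p = 0.0386, adjusted p = 0.999), and its diets did not overlap in members or in the shared cluster (158, 149, 125 and 92.9 CPM). Of 32 synapse genes 25 were above 0 (median 0.23, 0.13 in the shared cluster). Of 13 GABA and chloride genes 12 were above 0 (median 0.31) and of 17 channel genes 16 (median 0.22), each list with 1 gene at an unadjusted p under 0.05. In the shared cluster these counts were 22 of 32 synapse genes, 8 of 10 GABA and chloride genes (median 0.24) and 11 of 16 channel genes (median 0.08), with no unadjusted p under 0.05. The share of member UMIs from other clusters moved with the diets in the same way, at 54.3, 59.5, 63.7 and 72.3%, and its part in these medians was not tested. Of 23 folate and 1-carbon genes, 13 were above 0 and 10 below (median 0.04), 2 with an unadjusted p under 0.05 and none called, and in the shared cluster 6 of 14 were above 0 (median -0.05).

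In accessibility, 0 of 70595 regions (0%) were called for diet in members by edgeR at an adjusted p under 0.05, 2776 had an unadjusted p under 0.05, and DESeq2 called 0 with 663 unadjusted. In counts simulated for 30000 regions of all members, edgeR recovered 2 of 50 regions changed 1.5-fold and 27 of 50 changed 2-fold. Only regions above a minimum mean count were changed there, so recovery of regions with fewer counts was not tested. In the shared cluster 0 of 43939 were called, with 1473 unadjusted. Leaving out a library gave 1 region without MF1, 54 without MF2, 20 without HF1 and 6 without HF2. The smallest p belonged to an intron of Gm36264 at chr13:9011377-9012256, with 201, 80.0, 74.3 and 50.7 ATAC CPM and a log2 difference of -1.16 ± 0.23 (adjusted p = 0.764). An intron of Inpp4b, an inositol phosphatase gene, at chr8:81782898-81783844 held 7.87, 6.54, 0.524 and 0.667 ATAC CPM, and an intron of Bcr at chr10:75135004-75136185 held 12.6, 10.5, 2.36 and 3.002. Others with small p were an intron of Fli1 and an intergenic region nearest Axin2 on the lower side, and on the higher side an intron of Lrfn2 and intergenic regions nearest 4930452B06Rik, Nckap5, Grap and Hdac11. The diets did not overlap at the first 3 regions in all members, but the adjusted p was at least 0.764. At Gm36264, MF1 alone lay far above the other libraries. The diets overlapped there in the shared cluster, with 179, 33.3, 66.8 and 36.9 ATAC CPM. The mature gate also had its highest value in MF1, with 182, 101, 149 and 83.1 ATAC CPM. At Inpp4b and Bcr the diets did not overlap in the shared cluster either. The regions over the starts of the rule genes gave unadjusted p of 0.206 to 0.965 for diet at the 6 of 8 genes that had such a region.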

How the data were processed

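Hippocampi of P21 pups gave 4 libraries of single-nucleus RNA and ATAC. The authors aligned reads to mm10 with Cell Ranger ARC 2.0.1 and deposited UMI counts per gene and counts per peak, with peaks called in each library. ATAC counts were mostly even (81.1 to 83.1% of entries). The authors' columns of nuclei were joined by barcode, and all columns were mapped.

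Of 14297 barcodes, 11518 were kept, with 500 to 7000 genes, mitochondrial UMIs below 2% and between 1000 and 70000 ATAC counts. Doublets were scored with Scrublet (Scanpy 1.11.5, expected rate 0.03) and stayed in. Clustering used 3000 variable genes, 30 components, 20 neighbours and Leiden resolution 1. Merging peaks across libraries gave 253748 regions. The 154785 (61.0%) with a peak in each of the 4 libraries were used. Gene accessibility summed each library's own peaks, not the merged regions, over a gene and 2000 bases before it. Of 32285 features, 31372 matched 1 gene of GENCODE M21, 52 several and 861 none.

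Counts were summed per library. Members held 744966 to 1345174 UMIs and 2972091 to 4020883 ATAC counts a library. edgeR 4.0.16 (quasi-likelihood, TMM normalization, limma 3.58.1, R 4.3.3) tested diet over 4 libraries, and members against a gate with library as a term. Features with low counts were first left out by edgeR's filterByExpr. Benjamini-Hochberg adjustment ran over all features that passed this filter. Calls needed an adjusted p under 0.05 and, for diet in RNA and for gene accessibility, 1.2-fold, and for members against a gate in regions, 2-fold. RNA of members against a gate had no test, since RNA chose the nuclei, and was described by genes with at least 100 UMIs that were 2-fold apart in every library. Shares were compared by an exact permutation test, with exact (Clopper-Pearson) 95% intervals. Alternatives used DESeq2 1.42.0, other normalization and filters, stricter members and left-out libraries. The scripts were tested on simulated data.

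Named genes were the rule genes, genes of role lists, the 15 highest and 15 lowest by their least extreme library ratio, called genes and the 10 smallest p in each direction with diets not overlapping, the 5 regions with the smallest p in each direction, and regions over rule gene starts. Members and lists were chosen with earlier results of these data known. Values of a few genes are not reported here. Filters on nucleosome signal and enrichment at starts need fragments, not used here. Tables and plots were made with pandas 2.3.3, matplotlib 3.10.9, scipy 1.17.1 and numpy 2.4.6 under Python 3.11.15.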

Additional observations from a re-analysis of the deposited data

Results flagged for a closer look

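The diet difference in members was compared with that in mature gate nuclei in 1 edgeR fit, a test added after the data were seen. With all members, 2 of 11992 genes differed, 1 of which is described here, with 676 at an unadjusted p under 0.05. Mal, a myelin protein, held 325, 125, 116 and 69.4 CPM in members and 79.2, 38.2, 152 and 71.9 in the mature gate, a difference of the log2 diet differences of -2.18 ± 0.21 (adjusted p = 1.43e-04). Mal is among the genes of oligodendrocytes. Summed oligodendrocyte markers stood at 1592, 1176, 884 and 1035 CPM in members and at 401, 414, 902 and 596 CPM in the mature gate. Both Mal and this sum were lower in the 2 HF than in the 2 MF libraries in members. In the mature gate the sum was higher in HF without overlap, while Mal overlapped between the diets. In the shared cluster, on its own total, they stood at 308, 186, 394 and 179 CPM. Their part in the result was not tested.

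With the shared cluster, 4 of 11211 genes differed, with 429 at an unadjusted p under 0.05. Of these 4, 1 is a gene whose RNA the rule limits and is not described. Hbb-bs differed by -1.20 (adjusted p = 4.42e-05) and Hbb-bt by -1.47 (adjusted p = 0.0385), both with MF1 far above the other libraries. Gm32647 held 46.8, 103, 24.6 and 39.3 CPM against 76.3, 49.8, 146 and 25.8, a difference of -1.74 (adjusted p = 0.0470).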

How the results depend on the processing

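Counts of regions and genes called between members and the mature or transitional gate stayed within 1.5 times of the main count under all alternatives run. Both differences in the share of members stayed below 0 under all alternatives run, except that thinning to 2000 UMIs turned the difference in share of granule nuclei to 1.53 points. Diet calls in RNA, 0 in the main analysis, were 29 without a filter on low counts, 78 without doublet scores over 0.05, 4 in the shared cluster and 39 with a replicate block, and 0 to 190 leaving out 1 library. Diet calls in regions, also 0, were 17 without a filter and 16 with the replicate block, and 1 to 54 leaving out 1 library. The block rests on a number that the labels do not tie to a litter or batch, the deviations of MF1 and HF1 correlated at 0.341 over 6893 genes, and 20 of the 39 genes it called were among the 78. RNA genes 2-fold apart in every library numbered 586 with all members and 1408 with the shared cluster. Leaving out 1 library gave differences in the share of kept nuclei of -1.91 to -0.410 points, in the share of granule nuclei of -4.98 to -1.22 points, 558 to 667 RNA genes, 27597 to 30025 regions, and 7690 to 8143 and 6589 to 7144 genes in accessibility against the mature and transitional gates. The causes were not tested. For single genes and regions recomputed, no called direction was reversed, and Prox1 accessibility, not called, ran from -0.01 with at least 4 rule genes to 0.82 against all other nuclei, while the Gm10800 region, also not called, stood at 0.19 there. For named diet genes, 190 alternatives kept the side of the threshold and 56 passed it. The shared cluster held 279810 to 555480 UMIs a library, against 744966 to 1345174 in all members.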

Other observations

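Ribosomal protein genes, a list added after the data were seen, were summed at 26613, 15084, 17991 and 9232 CPM in members and 13472, 9022, 11205 and 6526 in the mature gate. Of 81 with enough UMIs, 0 were 2-fold apart in all libraries with all members and 54 were higher with the shared cluster, at a median log2 difference of 0.71 and 1.33. Over all genes, 3.6% were 2-fold higher with all members and 6.35% with the shared cluster. In gene accessibility, 24 of 82 were higher than in the mature gate and 1 lower, beside 19.6% higher and 21.6% lower over all genes. For diet, 81 of 82 lay below 0 in members and 75 of 80 in the shared cluster (median log2 -0.52 and -0.39), and none was called. Over all genes, 5255 of 10597 lay below 0 in members and 3263 of 6821 in the shared cluster. MF1 held the highest and HF2 the lowest sum in members and in the mature gate alike. The diets overlapped, since the sum of HF1 lay above that of MF2 in members, the shared cluster and the mature gate.

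Aldoa-ps4, a pseudogene whose exon held the region with the largest log2 difference among the 5 named as higher (40.9, 49.8, 45.8 and 39.0 against 0.190, 0.516, 0.172 and 0.819 ATAC CPM), lies 372035 bases from the start of Col12a1. Col12a1, a fibril-associated collagen, was among the genes highest in member RNA, with 61.6, 69.8, 67.6 and 63.4 CPM against 2.57, 0, 4.42 and 0.416 and a gene accessibility difference of 1.03 ± 0.15. Whether that region acts on Col12a1 was not tested.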
